A study of Mus musculus with 12 samples.

Results

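Adam7, Adam28, Crisp1, Defb1 and Defb19 are 5 genes best known from the male reproductive tract and from epithelial defence, and their mRNA was followed here in the kidney cortex of TRACK mice. They were selected by gene symbol among the 37681 genes of the deposited count table, as genes that earlier results of the same samples had brought up, so the difference between the genotypes in these genes is a description and carries no p-value. The study compared 3 TRACK mice (TG+) with 3 wild-type littermates (TG-), all male C57BL/6 mice 18 months old and untreated. A thin outer slice of cortex was taken from each of the 2 kidneys of a mouse, which gave 12 libraries. TG+ mice carry the transgene TRACK/gamma-HIF1alphaM3, a constitutively active form of HIF1α that the γ-glutamyl transferase promoter expresses in proximal tubule cells, and TG- mice lack it. The TG+ mice are 43-29, 43-49 and 43-75, the TG- mice are 43-26, 43-50 and 43-76, and values below are given in this order. Bulk cortex mixes cell types, so a change in the number of cells of one type and a change in RNA per cell cannot be told apart.

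The members belong to 3 families of mostly secreted or surface proteins. ADAM proteins are membrane proteins with a disintegrin and a metalloprotease-like domain. Adam7 lacks an active protease site and is made in the epididymis, the duct in which sperm mature, whereas Adam28 is an active protease known from lymphocytes and epididymis. Crisp1, a member of the CAP superfamily of cysteine-rich secretory proteins, is an androgen-dependent product of the epididymal epithelium that coats sperm. Beta-defensins are small cationic peptides held together by cysteine pairs. Defb1 is made constitutively by kidney and other epithelia and kills bacteria, and Defb19 is known from testis and epididymis.

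In TG+ kidney cortex Adam7, Crisp1 and Defb19 were higher in all 3 mice than in any TG- mouse, Defb1 was abundant at like levels in both genotypes, and Adam28 was not detected in either. Adam7 went from a mean of 0.311 to 22.0 CPM (counts per 1e6 reads after TMM scaling), Defb19 from 1.10 to 23.0 CPM, and Crisp1 went from 5 reads in all TG- libraries to 430 reads in TG+. Levels per length can be compared through the RPKM values that the authors deposited. In TG+ these averaged 208.5 for Defb1, 57.8 for Defb19, 4.34 for Adam7 and 1.96 for Crisp1, and this order held within every TG+ library. Across libraries the TG+ ranges of Adam7 (1.66 to 7.14 RPKM) and Crisp1 (0.523 to 4.62 RPKM), next to each other in this order, overlapped. In TG- the means were 209.4 for Defb1 and 2.93 for Defb19, while Adam7 (0.0464 to 0.1225 RPKM) and Crisp1 (0.0225 to 0.1626 RPKM) overlapped through kidney 1 of 43-26 alone, the only TG- library with Crisp1 reads. RPKM is proportional to the count plus 1, so a library without a read still holds a value above 0.

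The coding sequences of both defensins are shown because the beta-defensin family is defined by its cysteines, whose codons are in capitals. They are read 5′ to 3′ from the coding transcript of each gene in GENCODE M21, 210 bases in Defb1 and 252 bases in Defb19.
Defb1: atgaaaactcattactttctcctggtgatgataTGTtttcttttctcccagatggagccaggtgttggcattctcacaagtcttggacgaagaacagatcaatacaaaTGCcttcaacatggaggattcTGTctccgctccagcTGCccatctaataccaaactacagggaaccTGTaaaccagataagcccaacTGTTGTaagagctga
Defb19: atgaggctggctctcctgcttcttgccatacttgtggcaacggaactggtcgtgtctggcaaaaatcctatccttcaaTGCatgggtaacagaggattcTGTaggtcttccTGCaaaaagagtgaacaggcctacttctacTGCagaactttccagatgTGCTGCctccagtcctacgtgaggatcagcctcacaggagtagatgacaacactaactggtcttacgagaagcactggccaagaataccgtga
Both carry 6 cysteine codons that end in an adjacent pair, and Defb1 has 1 more at codon 12, near its start. Between the 6 codons lie 6, 4, 9, 6 and 0 other codons in Defb1 and 6, 3, 9, 5 and 0 in Defb19. No stretch of 51 bases, the length of the reads, in Adam7, Defb1 or Defb19 occurs in another gene of GENCODE M21. Crisp1 shares 30 of its 1366 such stretches (2.2%) with Crisp3, a neighbouring paralogue that had 1 read in all 12 libraries. Of the 9228 stretches of Adam28, 0.86% occur in other genes.

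Adam7 (ENSMUSG00000022056, chr14:68497336-68533741 on the minus strand of GRCm38) reached 33.05, 9.31 and 23.5 CPM in the TG+ mice and 0.370, 0.298 and 0.266 CPM in the TG- mice. The lowest TG+ mouse thus lay far above the highest TG- mouse, and the genotypes did not overlap. The log2 fold change was 6.13 (standard error 0.67, edgeR fit over all genes). Reads were few but present in every TG- library, with 5 to 14 reads in each and 49 in all, against 3345 reads in TG+. Within TG+ the mice differed by 3.55-fold and the coefficient of variation was 54.4%.

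Crisp1 (ENSMUSG00000025431, chr17:40293758-40319207, minus strand) had 4.85, 0.882 and 2.79 CPM in TG+ and 0.0975, 0 and 0 CPM in TG-. Every TG+ library had 19 reads or more, and the only TG- library with any read was kidney 1 of 43-26, with 5. A count of 0 allows up to 3 reads, which is 0.0944 to 0.1245 CPM in the TG- libraries. The ratio of the summed levels was 86.5 (95% exact interval for counting error alone, 36.8 to 268). Without 43-26 no TG- library held a read, and TG+ was then at least 97.1-fold higher, with the floor of 3 reads taken over the 4 remaining libraries. The fitted log2 fold change was 6.37 (standard error 1.58) and ranged from 5.16 on kidney 1 alone and 5.73 without 43-29, which held 240 of the 430 TG+ reads, to 10.21 without 43-26, a value that depends on how 0 reads are treated.

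Crisp1 is the member whose promoter was in the RefSeq promoter table used here, and it is shown because the gene went from near absence to a measurable level. The 250 bases before its start (GRCm38.p6, chr17:40319208-40319457, minus strand) are given 5′ to 3′ with the letters of any searched motif in capitals.
Crisp1 promoter: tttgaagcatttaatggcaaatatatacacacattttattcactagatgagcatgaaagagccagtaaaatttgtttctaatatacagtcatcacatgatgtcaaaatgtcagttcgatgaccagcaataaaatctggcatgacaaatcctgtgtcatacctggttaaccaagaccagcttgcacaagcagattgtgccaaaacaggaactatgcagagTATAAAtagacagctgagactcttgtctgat
On both strands the window was searched for TATAAA, the letters of a TATA box, for ACGTG and GCGTG, the core letters of a hypoxia response element, and for AGAACA, part of an androgen response element. TATAAA occurred 1 time, from 31 to 26 bases before the start, and is found in 12.4% of 32851 promoters of the same length. ACGTG (16.6% of promoters), GCGTG (28.2%) and AGAACA (16.1%) did not occur in these 250 bases. A match is a description of letters, not a bound site.

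Defb19 (ENSMUSG00000050645, chr2:152576086-152580312, minus strand) reached 28.2, 17.2 and 23.7 CPM in TG+ and 1.42, 0.928 and 0.942 CPM in TG-. The genotypes did not overlap in any library, with 460 to 733 reads per TG+ library and 21 to 42 per TG- library. The log2 fold change was 4.39 (standard error 0.24). Among the increased members it was the most even between TG+ mice, with a coefficient of variation of 24.0%.

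Defb1 (ENSMUSG00000044748, chr8:21776599-21795185, plus strand) had 156.5, 207.8 and 186.9 CPM in TG+ and 150.7, 194.0 and 196.5 CPM in TG-. These values overlapped, and the log2 fold change of 0.03 (standard error 0.13) was smaller than the spread between mice. Its sign changed when single mice were left out (from -0.09 to 0.12) and when kidney 1 was used alone (-0.04). Adam28 (ENSMUSG00000014725, chr14:68606027-68655842, minus strand) had 1 read in TG+ and 4 reads in TG-, never more than 1 in a library, so both groups were at the floor and no fold change is given. Adam28 starts 122.1 kb from Adam7, the 2 genes lie on the same strand, and the level of one was not detectable at a depth at which the other had 3345 reads.

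**Figure D1:**
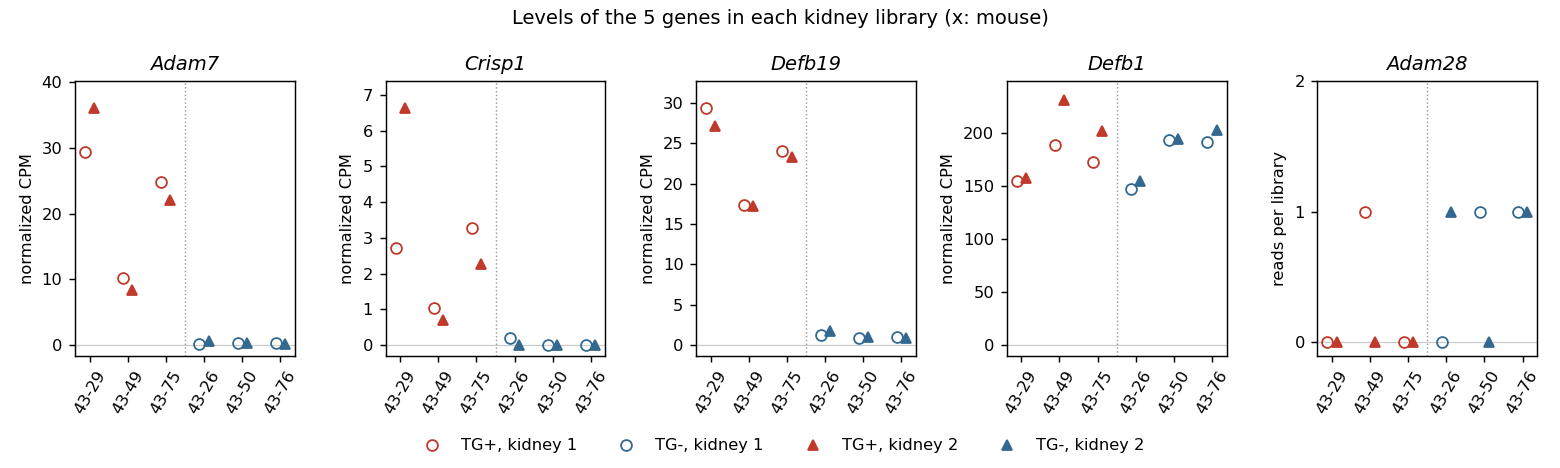
Level of each gene in the 12 kidney libraries, by mouse (x axis), as normalized CPM or, for Adam28, as reads (y axes, linear). Open circles are kidney 1, filled triangles kidney 2, red TG+ and blue TG-. Adam7, Crisp1 and Defb19 are higher in every TG+ library than in any TG- library, Defb1 overlaps between genotypes, and Adam28 has 1 read at most.

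Of the 4 members with enough reads to be tested, 3 lay higher in every TG+ mouse than in any TG- mouse, as did 23.4% of all 19399 genes tested. Of all genes tested, 39.1% had an unadjusted p below 0.05 in edgeR's test, and 3.77% were called higher in TG+ and 0.211% lower at the threshold of the study (adjusted p below 0.01, fold change above 2 or below 0.5). By log2 fold change, Crisp1 was number 30, Adam7 number 35, Defb19 number 72 and Defb1 number 9275 of the genes tested. The place of Crisp1 rests on 5 TG- reads in 1 library. Its log2 fold change fell to 5.16 on kidney 1 alone, below the 5.70 to 6.49 of Adam7 under all alternatives, so the order of these 2 is not settled. All 3 increased members followed 1 order among the TG+ mice, with 43-29 highest, 43-75 next and 43-49 lowest, and Defb1 had the reverse order. This order was found in 20.9% of all genes tested and in 29.6% of the 732 genes called higher, and its reverse in 21.7% and 15.8%. Of 9 genes of tubule injury, 6 had the order as well, among them Havcr1 (KIM-1, a marker of injured proximal tubule), with 1287, 710 and 1131 reads in TG+ and 260, 169 and 39 in TG-. The 5 HIF1 target genes used below to check the labels summed to 1367, 1009 and 1290 CPM in TG+, the same order. B and plasma cell markers summed to 1064, 2363 and 1684 CPM, the reverse order. The part of tubule injury, HIF1 activity or immune cells in the members' values was not tested.

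The 2 kidneys of a mouse gave like values for Defb19 in TG+ and unlike values for Crisp1, most of all in 43-29. In 43-29, Crisp1 had 2.71 CPM in kidney 1 and 6.64 CPM in kidney 2, a ratio of 2.45 (95% counting interval 1.82 to 3.34). In 43-49 and 43-75 the ratio of kidney 2 to kidney 1 was 0.684 and 0.694, on the other side of 1, with an interval that included 1 in 43-49 (0.365 to 1.25) and lay just below it in 43-75 (0.486 to 0.985). Adam7 followed the same sides with smaller steps, at 1.23 in 43-29, 0.810 in 43-49 and 0.891 in 43-75. Defb19 stayed between 0.924 and 0.994 in the TG+ mice. Defb1 was higher in kidney 2 of 43-49 (ratio 1.22) and of 43-75 (1.17) than in kidney 1. These intervals cover counting error alone, and over all genes the kidneys of a TG+ mouse differed by more than that, with a chi-square per gene of 3.58 in 43-29, 7.30 in 43-49 and 4.52 in 43-75. In 43-29, 6.51% of all genes tested differed by more than 1.5-fold between the kidneys, and in the TG- mice 6.77% to 7.24% did.

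The genes nearest to each increased member in pattern were taken as those with the smallest root mean square difference in log2 CPM over the 12 libraries, after each gene was centred on its own mean. For Adam7 they were ENSMUSG00000090797, which has no symbol in the annotation used, Gbx2 (a homeobox factor), Rasgrf2 (a Ras exchange factor), Ndufa4l2 (a HIF1-induced mitochondrial protein) and Nlrp10 (a NOD-like receptor), at 0.47 to 0.55 log2 units. Nlrp10 was close in level as well, with 34.4, 11.4 and 24.4 CPM in TG+ and 0.507, 0.158 and 0.266 CPM in TG-. For Crisp1 they were Lrp2bp, Gm17416, D130058E05Rik, 4930595M18Rik and Isg20, and the distances of 0.65 to 0.71 were wider than those of the other members. For Defb19 they were 4930595M18Rik, Isg20 (an interferon-induced exonuclease), Aldh18a1 (proline synthesis), Ppp1r3b (a glycogen-targeting phosphatase subunit) and Stc2 (stanniocalcin 2), at 0.18 to 0.35. Isg20 had 34.0, 17.1 and 22.3 CPM in TG+ and 1.23, 1.17 and 1.04 CPM in TG-, close to Defb19 itself. Between the increased members the distances were 0.91 for Adam7 and Crisp1, 0.81 for Adam7 and Defb19 and 0.75 for Crisp1 and Defb19. The nearest genes are the smallest distances among many genes, so a fixed pair would usually lie further apart and the 2 kinds of distance are not compared. The lists for Adam7 and Crisp1 depend on the count added before the log. With 0.5 in place of 2, 3 of 5 genes stayed for Adam7, 1 of 5 for Crisp1 and 4 of 5 for Defb19.

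**Figure D2:**
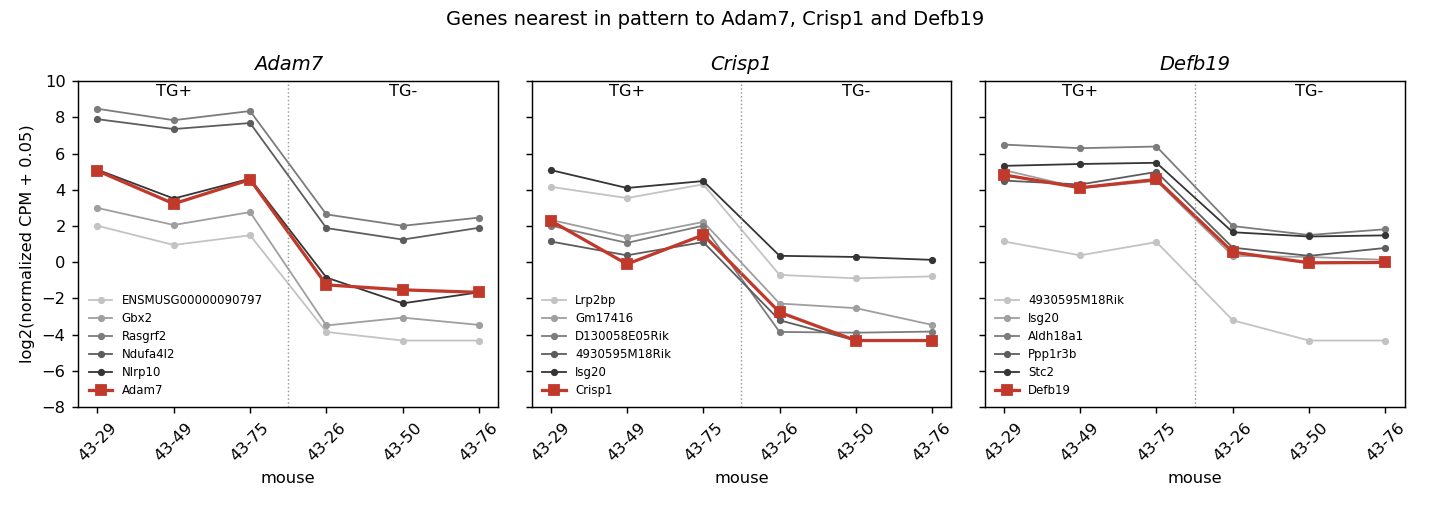
Level in each mouse (y axis, log2 of normalized CPM plus 0.05) of Adam7, Crisp1 and Defb19 (red squares) and of the 5 genes nearest to each in pattern (grey), for the 3 TG+ and the 3 TG- mice (x axis). The selected genes step down together between 43-75 and 43-26, and most dip at 43-49.

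Neighbouring genes were examined because the increased members lie in clusters of paralogues. Within 500 kb of a member's start the table holds 109 other genes, of which 44 could be tested and 5 were called higher in TG+ and 0 lower, beside 3.77% and 0.211% of all genes (23 of the 44 had an unadjusted p below 0.05 in edgeR's test, beside 39.1% of all genes). All 5 lie around Defb19, where 28 of 48 neighbours were tested. DESeq2 called 8 neighbours, 7 of them around Defb19 and 1, Ckap2, near Defb1. Gm17416, a model of 201 bases in 1 exon (chr2:152569338-152569538, plus strand) that starts 10.97 kb past the start of Defb19 on the opposite strand, had 626 reads in TG+ and 17 in TG- (log2 fold change 5.20, standard error 0.51, adjusted p = 0.0001636). Whether the authors' counting used strand is not given in the sources used here. The beta-defensin Defb36, which starts 24.0 kb upstream of Defb19 on the other strand, rose from 0.141 to 0.701 CPM (2.25, standard error 0.47, adjusted p = 0.00862). Its call rests on few reads and was lost without any 1 of 43-29, 43-49, 43-75, 43-26 or 43-76 (adjusted p of 0.0103 to 0.0323) and on kidney 2 alone (0.0202). Further away, Id1 (an inhibitor of helix-loop-helix factors, 156 kb) rose by 1.28, Cox4i2 (the hypoxia-induced isoform of a cytochrome c oxidase subunit, 174 kb) by 4.06 and Trib3 (a stress-induced pseudokinase, 236 kb) by 3.897 on the log2 scale, with adjusted p of 0.000355, 3.209e-05 and 3.067e-05.

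The increase was not shared by all defensins of the region. Defb29, a neighbour 40.2 kb from Defb19 on the same strand, had a mean of 45.8 CPM in TG+ and 47.2 CPM in TG- (log2 fold change -0.05, standard error 0.08, adjusted p = 0.719), a sign that turned to 0.07 with scaling by library size alone. Defb26, at 68.6 kb, had 47 and 17 reads (1.45, standard error 0.44) and did not pass at an adjusted p of 0.0388. Defb28, at 62.1 kb, had 22 reads in TG+ and 3 in TG- and was not tested. H13 (a signal peptide peptidase), 89.15 kb upstream and thus between Defb19 and Id1, had a log2 fold change of -0.03. On the same stretch Rem1, 46.6 kb upstream, had 0.84 (adjusted p = 0.0243) and Mcts2, 107 kb upstream, -0.26 (adjusted p = 0.0822). Gm14161, 26.4 kb from Defb19 on the other side, had 0.88 (adjusted p = 0.0425). None of these passed in edgeR's test.

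Around Defb1, 13 of 47 neighbours were tested and 0 were called by edgeR, with 5 at an unadjusted p below 0.05, beside 39.1% of all genes. The nearest tested genes on either side were the pseudogene Gm7869 at a log2 fold change of -0.27 and Atp7b, a copper transporter, at 0.43 (adjusted p = 0.0334). Around Adam7, 0 of 3 were called by edgeR or DESeq2, with 1 at an unadjusted p below 0.05 in each. Stc1 (stanniocalcin 1) had a log2 fold change of 0.66 (adjusted p = 0.119) and Nefm (a neurofilament subunit) 0.25 (adjusted p = 0.567). Adamdec1, the ADAM gene between Adam7 and Adam28, had 25 reads in TG+ and 28 in TG- and was not tested. Around Crisp1 none of the 9 neighbours had enough reads, and its paralogues Crisp2 and Crisp3 had 1 read each in all libraries.

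**Figure D3:**
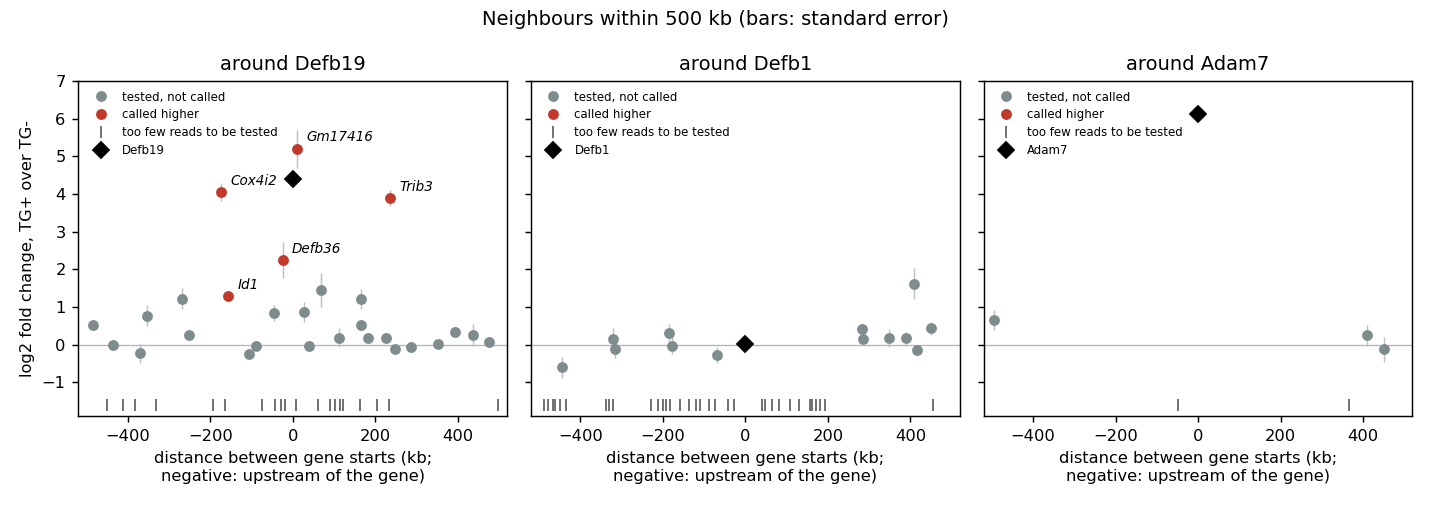
Log2 fold change of TG+ over TG- (y axis, bars are standard errors) against the distance between gene starts in kb (x axis, negative is upstream) for the genes around Defb19, Defb1 and Adam7. Red marks genes called higher, the diamond is the member itself, and ticks at the bottom are genes with too few reads. Called genes lie around Defb19, among uncalled ones.

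Most paralogues had too few reads to be tested, so the counts below rest on few genes and stand beside the 3.77% of all genes called higher. Of 41 other beta-defensin genes, 23 had no read in any library and 4 were tested, of which Defb36 alone was called higher. Defb42, the tested gene outside the region of Defb19, stood at 0.357 and 0.431 CPM. Of 32 other ADAM genes, 13 were tested, 6 had an unadjusted p below 0.05 in edgeR's test and 1 was called higher, Adam8 (1.20, standard error 0.18, adjusted p = 0.00277), an active protease known from leukocytes, from 0.776 to 1.797 CPM. Its call was lost without 43-29, 43-75 or 43-76 (adjusted p of 0.0102 to 0.0141) and on kidney 2 alone (0.0345). The abundant family members Adam9, Adam10 and Adam15, widely expressed sheddases, had log2 fold changes of -0.21, 0.12 and 0.35. Of 13 other CAP superfamily genes in the table, 8 were tested and 0 called by edgeR or DESeq2, while 7 of the 8 lay above 0 and 7 had an unadjusted p below 0.05 in each test, beside 39.1% of all genes in edgeR's. Their median log2 fold change was 0.53, beside 0.01 for all genes, and the most abundant, Crispld2, Glipr1 and Pi16, stood at 0.49, 0.41 and 0.46.

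Among 35 other genes known for high expression in the epididymis, 18 had no read in any of the 12 libraries, among them the lipocalins Lcn5, Lcn8 and Lcn9, the glutathione peroxidase Gpx5 and Crisp4. Another 12 had at most 14 reads in a library. Of the 5 tested, 1 was called higher, beside 3.77% of all genes. This was Cd52, a surface glycoprotein of sperm and of lymphocytes (5.13 to 10.3 CPM, log2 fold change 1.00, standard error 0.08, adjusted p = 0.000194), at the 2-fold limit. It fell below the limit without 43-29 (0.97) or 43-50 (0.96), with DESeq2 (0.99), without a filter on low counts (1.00) and on kidney 2 alone (0.85). The abundant protease inhibitors of this list, Wfdc2 (0.26) and Wfdc15b (-0.05), and Serpina1f (0.63) did not pass. Of 12 testis and sperm genes, Tnp1, Tnp2, Prm2, Akap4, Ldhc and Pgk2 had no read and Prm1 had 1, whereas Smcp, which codes for a mitochondrial capsule protein of sperm, rose from 7.39 to 20.8 CPM (1.49, standard error 0.20, adjusted p = 0.00178). Zpbp (0.06) and Insl6 (-0.18), the other tested genes of this list, did not pass, so 1 of 3 tested was called higher, beside the same 3.77%. None of 10 genes of the male accessory glands had more than 1 read in a library.

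Regulators of the epididymis and of its embryonic origin, the Wolffian duct, were all expressed in the cortex, and 0 of 22 were called (9 had an unadjusted p below 0.05 in edgeR's test, a share near the 39.1% of all genes, and 7 in DESeq2's, which called 0). Pax8, a transcription factor that the kidney and the duct share, had a log2 fold change of 0.12 (adjusted p = 0.287). Of 10 androgen-responsive kidney genes, 1 was called lower and 0 higher, beside 0.211% and 3.77% of all genes, and their median log2 fold change was -0.37, beside 0.01. The 12 proximal tubule markers, which share Slc7a13 and Kap with this list, had a median of -0.65 in the same samples, with 10 at an unadjusted p below 0.05, and their part in the list's values was not tested. The gene called was Cyp4a12a, a fatty acid hydroxylase of male kidney, which fell from 157.7 to 77.4 CPM (-1.03, standard error 0.08, adjusted p = 0.000155). It lay within 2-fold without 43-49 (-0.99) or 43-76 (-0.97), on kidney 1 alone (-0.99) and with scaling by library size (-0.91). Cyp2e1 and Slc7a13 had log2 fold changes of -0.74 and -0.75, short of 2-fold, and Kap, the kidney androgen-regulated protein, of -0.08. Of 13 tested genes of epithelial antimicrobial defence, 1 was called higher, beside 3.77% of all genes. This was Slpi, a secreted protease inhibitor (2.09 to 7.76 CPM, 1.89, standard error 0.22, adjusted p = 0.00101), a call that missed the threshold on kidney 2 alone (adjusted p = 0.01001).

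**Figure D4:**
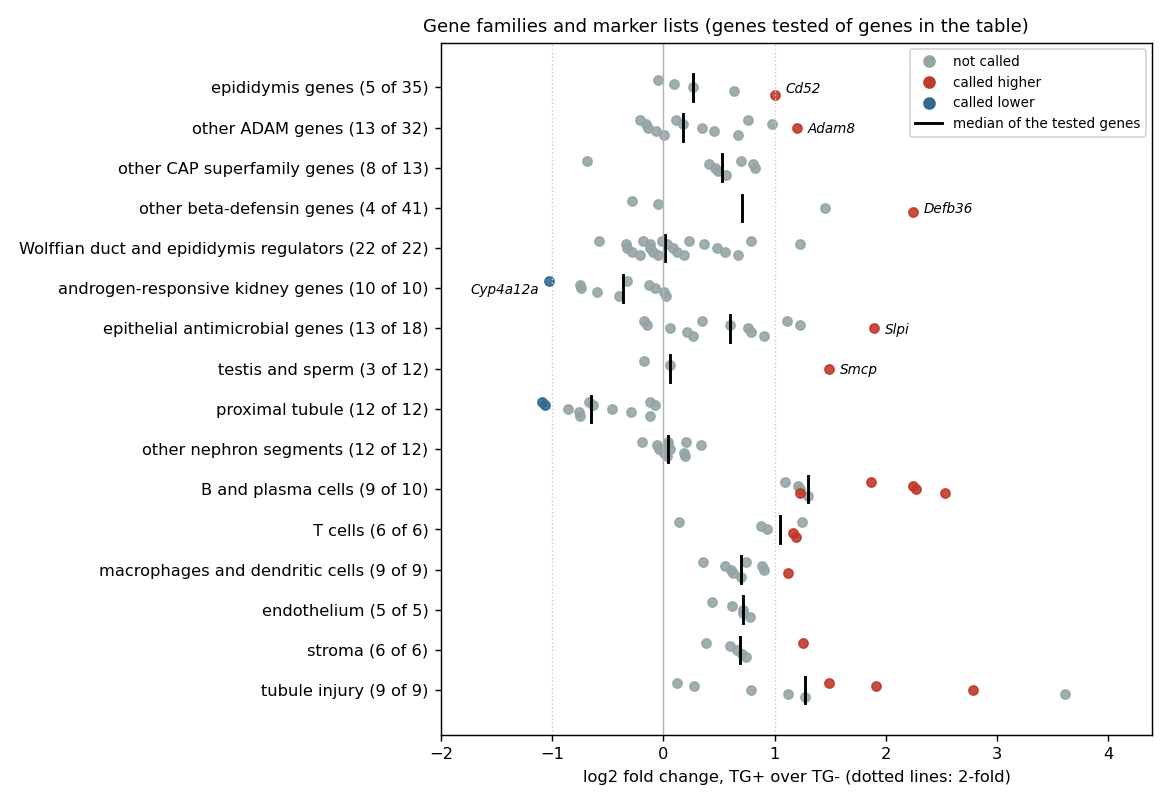
Log2 fold change of TG+ over TG- (x axis) for each tested gene of the related families and marker lists (rows, with the number tested of the number in the table). Red and blue points are genes called higher and lower, grey points were not called, and black bars are medians. The reproductive and family lists hold 0 or 1 called gene each, of 3 to 22 tested, and the B and plasma cell list holds 5 of 9. Of all genes tested, 3.77% were called higher and 0.211% lower.

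The labels were checked on 5 HIF1 target genes (Slc16a3, Ndufa4l2, Egln3, Car9 and Pdk1), which summed to 1009 to 1367 CPM in the TG+ mice and 69.8 to 78.7 in the TG- mice. Cell type markers moved between the genotypes in the same samples. Proximal tubule markers, present throughout, summed to 28020 to 31290 CPM in TG+ and 38960 to 41540 in TG-, with 2 of 12 called lower (Slc22a6 and Cyp4b1), beside 0.211% of all genes, and both within 2-fold when scaled by library size alone (-0.97 and -0.95 on the log2 scale). Of 12 markers of other nephron segments, 0 were called by edgeR or DESeq2 (3 had an unadjusted p below 0.05 in each). B and plasma cell markers summed to 1064 to 2363 CPM in TG+ and 267.7 to 564.5 in TG-, with 5 of 9 called higher (Jchain, Igkc, Cd79a, Mzb1 and Cd79b). The call of Cd79b was lost on kidney 1 alone (adjusted p = 0.0345) and without any 1 of 43-49, 43-75, 43-26, 43-50 or 43-76 (0.0115 to 0.0265). T cell markers had 2 of 6 called higher, macrophage and dendritic cell markers 1 of 9, stroma 1 of 6, and tubule injury 3 of 9, beside 3.77% of all genes. An unadjusted p below 0.05 was found in 5, 8, 5 and 8 of them, beside 39.1% of all genes, and their median log2 fold changes were 1.05, 0.70, 0.69 and 1.27. Endothelium had 0 of 5 called by edgeR or DESeq2, with all 5 at an unadjusted p below 0.05 and a median of 0.71. Adam28, known from B cells, stayed at 1 read or fewer per library while 5 B and plasma cell markers were called higher. The part of these shifts in the levels of Adam7, Crisp1 and Defb19 was not tested.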

How the data were processed

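RNA of 12 kidney cortex libraries (TruSeq kit, 51-bp single-end reads) was sequenced by the authors, who analysed it with the Tuxedo tools. The submitters' processing notes name the genome build mm9. The counting program, annotation and strand setting are not given in the sources used here. The authors deposited read counts per gene, without normalization, and RPKM values, which were proportional to the count plus 1, within 1%, in all 37681 genes. The table's log2 RPKM values and the authors' own comparison (fold changes, p-values) were not used. Libraries held 21888584 to 33704850 reads on genes, and intervals and floors cover counting error only. P-values measure the spread between these 6 mice.

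The members and gene lists were chosen with earlier results of these data known. Counts of both kidneys were summed per mouse, since the 2 kidneys of a mouse are not independent (48052131 to 60506785 reads, 3 mice a group), filtered with filterByExpr, scaled by TMM (0.944 to 1.065) and compared by the quasi-likelihood test of edgeR (version 4.0.16 in R 4.3.3). P-values were adjusted after Benjamini and Hochberg over the 19399 genes kept. Standard errors are Wald errors from the fitted weights and the posterior quasi-dispersion. The procedure was tested on simulated data. Symbols and positions came from GENCODE M21 (GRCm38) by Ensembl identifier, for 32642 genes. No protein was printed.

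Named genes are the 5 members, called neighbours within 500 kb and the nearest tested gene on each side, up to 6 called and 3 abundant uncalled genes of a list, and the 5 nearest in pattern (at least 1 CPM in TG+, prior count 2). Some genes that this rule names are not reported here. Genes named for having no or few reads, H13, Rem1, Mcts2, Gm14161, Havcr1 and Ckap2 were chosen after their values were seen. Alternatives were DESeq2 (1.42.0), scaling by library size, no filter, single kidneys, a block of the 3 pairs of mice in the name of the deposited file, leaving out each mouse, other call limits (adjusted p below 0.05, or no minimum fold) and a prior count of 0.5.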

Additional observations from a re-analysis of the deposited data

Results flagged for a closer look

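In the TG- group Crisp1 had 0.1896 CPM in kidney 1 of 43-26, the 5 reads described above, and no read in the other 5 libraries, which puts this library apart from the rest of its group. With 5 libraries at 0 any read in the other library would set it apart, so the 1 in 20 groups that such a test marks by chance is no guide here. The 5 reads exceed the floor of 3 reads.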

How the results depend on the processing

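Adam7 and Defb19 kept a log2 fold change of 5.70 to 6.49 and of 4.21 to 4.62 under the 13 alternatives. Crisp1 moved by more than its spread between mice, to 5.16 on kidney 1 alone, to 9.36 on kidney 2 alone and over 5.73 to 10.21 without single mice, in each case with more reads in TG+. Few TG- reads, 5 in all, set this value, and all 5 were in kidney 1 of 43-26. The TG- libraries held 0 reads on kidney 2 alone and without 43-26, so 9.36 and 10.21 depend on the prior count and are neither measured folds nor bounds. Defb1 reversed to -0.0372 on kidney 1 alone and ranged from -0.0896 to 0.12 without single mice. Over all genes, 469 to 633 were called higher and 29 to 50 lower without single mice, and without 43-76 the number called higher was 469. Scaling by library size alone, which moved the median of all genes from 0.01 to 0.13 on the log2 scale, gave 927 higher and 22 lower. With no minimum fold 1534 were higher and 824 lower, and at an adjusted p below 0.05 with 2-fold 72 were lower.

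Single calls in short lists changed more. The epididymis list had 0 called higher with DESeq2, without a filter and on kidney 2 alone, and 0 to 1 without single mice. Other ADAM genes had 2 with scaling by library size or without a filter, 4 with no minimum fold, and 0 to 2 without single mice. Other beta-defensins had 0 on kidney 2 alone, 2 at an adjusted p below 0.05, and 0 to 1 without single mice. Other CAP genes had 1 with no minimum fold, and the neighbours of Defb19 had 8 at an adjusted p below 0.05. The file name of the deposited table lists 3 pairs of mice. Deviations from the group means correlated at 0.307, 0.283 and -0.06 within them, and at -0.357 to 0.0983 between mice of different pairs. The values 0.307 and 0.283 lay above that range and -0.06 lay within it, so the pairs were not taken as given. With the replicate block 779 genes were higher and 46 lower, and other beta-defensins had 0 called, because Defb36 (2.23, adjusted p = 0.0167, edgeR) no longer passed.

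A tally was made of 39 named genes outside the 5 members. It leaves out the genes nearest in pattern except Gm17416, the HIF1 target genes and the genes chosen after their values were seen. Of the 39, 25 kept direction and call in each alternative fit in which they were tested, at unchanged call limits. Another 8 changed the call in some fit and 6 changed sign. The sign changes were of uncalled genes near 0. With scaling by library size they were Defb29 (0.0721), Wfdc15b (0.0756) and Kap (0.0406), and on kidney 1 alone Defb42 (0.0306) and Zpbp (-0.0469). Without single mice Defb29 ranged from -0.0972 to 0.0278, Wfdc15b from -0.157 to 0.0244, Kap from -0.143 to 0.000605, Nefm from -0.0218 to 0.48 and Zpbp from -0.131 to 0.151. The causes were not tested.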
